A study of Rattus norvegicus with 16 samples.

Results

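The comparison set the 8 hippocampal arrays of rats labelled depression-susceptible or anxiety-susceptible against the 4 arrays of rats labelled insusceptible, 12 of the 16 arrays of the series. The members were chosen by their group labels, with the 2 susceptible groups weighted equally, and the genes of interest are those where both susceptible groups lie on the same side of the insusceptible group. All 3 of these groups were male Sprague-Dawley rats (250 g at purchase) exposed to chronic mild stress, a changing run of small stressors, for 8 weeks. The remaining 4 arrays are of controls of the same strain, sex and weight that were not stressed, and their values are given beside the others. The sources used here do not say how the stressed rats were sorted, nor if a group's 4 arrays come from different animals. The tissue was whole hippocampus, so fewer cells of a type and less RNA per cell cannot be told apart.

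As background, the hippocampus is rich in receptors for corticosteroids, the adrenal hormones released under stress, which act on the transcription of target genes such as Fkbp5 and Sgk1. Immediate early genes such as Fos and Egr2 are transcribed within minutes of neuronal activity. The choroid plexus, a secretory epithelium in the brain ventricles that makes cerebrospinal fluid, lies against the hippocampus and can be taken along in dissection.

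The arrays lay on 4 slides. Controls and depression-susceptible samples shared slides 1 and 2, scanned on day 1, whereas all anxiety-susceptible arrays were on slide 3 and all insusceptible arrays on slide 4, scanned on day 2. Slide and group therefore cannot be told apart in either difference, and the depression-susceptible difference also spans the scan days. On day 1 an array's 75th percentile lay between 2863 and 3348, and on day 2 between 1083 and 1259. The share of probes well above background was lowest on the insusceptible arrays (62.1% to 66.9%), and reached 66.7% to 74.0% on the susceptible ones. Over 1487 probes with 3 spots, the variance between same-slide arrays of a group was 0.55 to 0.88 of that between spots of 1 array, in 6 sets, while the ratio across both slides was 5.19 for controls and 4.75 for depression-susceptible arrays. They were therefore averaged, which left 6 samples, namely 2 of controls, 2 of the depression-susceptible group and 1 of each other group. The errors and p-values below measure the spread between slides of the same group, which only the control and depression-susceptible groups have, and not a spread between animals. The slide differences of these groups, which shared their slides, correlated at r = 0.714 over probes. The fit took the slide means as independent, so this spread rests on fewer independent values than the fit counts. Both hippocampal neuron markers that were tested were well above background on all 16 arrays.

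Of 17708 probes tested, 9 (0.0508%) were higher and 1 (0.00565%) was lower in the susceptible groups than in the insusceptible group at an adjusted p under 0.05 (limma with Benjamini-Hochberg adjustment), 0.0565% in all. All 10 had both susceptible groups on the same side. The call was narrow: with the 75th percentile taken over probe means in place of single spots, 4 of the 10 stayed under the threshold and the highest adjusted p of the 10 was 0.0566. Those 4 were Vegfb, Sostdc1 and 2 probes without a gene symbol. Leaving out the depression-susceptible replicate 2 array left 0 calls (limma), and so did leaving out all arrays of 1 group on 1 of the day 1 slides. The higher calls numbered 1 without control replicate 4, 3 without control replicate 1, 2 or 3 or depression-susceptible replicate 4, and 4 without depression-susceptible replicate 3. They numbered 5 without anxiety-susceptible replicate 3 or insusceptible replicate 1 or 2. At an unadjusted p under 0.05, 14.9% of the 11216 genes passed.

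Levels are given as log2 signal relative to the 75th percentile of the array, and differences as log2 differences. Vegfb is a growth factor of the VEGF family. Its level was -2.10 and -2.29 in the control samples, -2.41 and -2.31 in the depression-susceptible samples, -3.02 in the anxiety-susceptible sample and -5.89 in the insusceptible sample. The insusceptible arrays stood apart from the other 12, and the probe was not well above background on any of them. For a ratio, insusceptible values under the lowest level of any probe well above background on that array were raised to that level. The level was then 9.98-fold higher in the depression-susceptible group, 6.31-fold higher in the anxiety-susceptible group and 11.2-fold higher in controls. The measured difference of the susceptible groups from the insusceptible group was 3.20 (SE 0.12, adjusted p = 0.0450 by limma). Under normexp background correction it was 0.83, with the same sign, and 1.02 and 0.64 in the depression-susceptible and anxiety-susceptible groups. The ratios are therefore not minima.

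**Figure D1:**
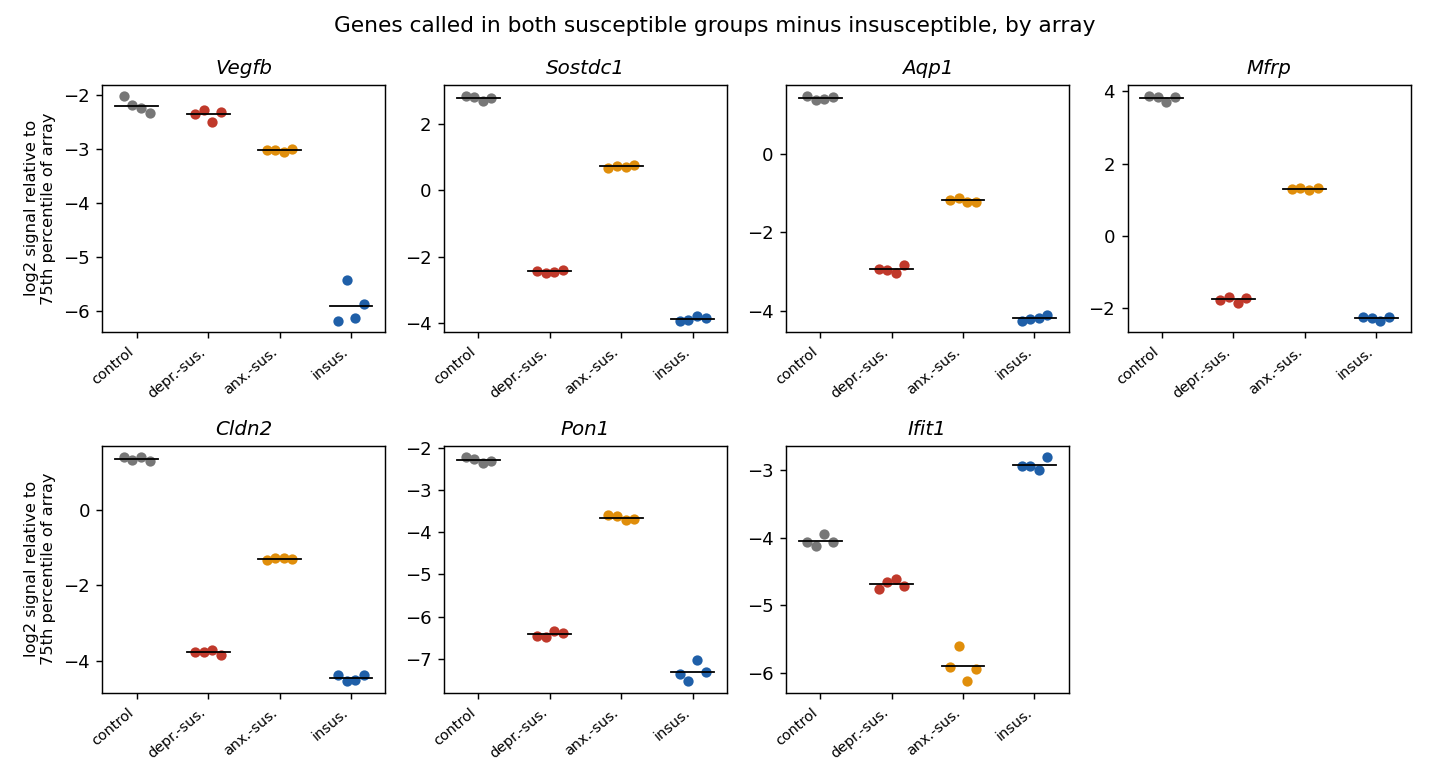
Log2 signal relative to the 75th percentile of the array (y axis) by group (x axis) for the 7 genes with a symbol that were called; each point is an array and each line the mean of 4 arrays. All susceptible arrays lie above the insusceptible arrays for the first 6 genes and below them for Ifit1, and in the 5 panels from Sostdc1 to Pon1 the control arrays are highest.

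Sostdc1, Aqp1, Mfrp and Cldn2, all on the list of choroid plexus markers, were also called higher over the 2 susceptible groups together. In the limma fit on 6 samples none of the 4 passed in the depression-susceptible group alone (adjusted p = 0.0772 for Sostdc1, Aqp1 and Cldn2 and 0.0833 for Mfrp), whereas each passed in the anxiety-susceptible group (adjusted p = 0.0240). Sostdc1, which blocks BMP and Wnt ligands outside the cell, had levels of 2.83 and 2.74 in controls, -2.42 and -2.45 in the depression-susceptible samples, 0.72 in the anxiety-susceptible sample and -3.86 in the insusceptible sample. The groups did not overlap, and controls were highest. Its difference from the insusceptible group was 1.43 (SE 0.10) in the depression-susceptible and 4.59 (SE 0.11) in the anxiety-susceptible group, and 3.01 (SE 0.09, adjusted p = 0.0450 by limma) over both. Aqp1, the water channel of the choroid plexus, had levels of 1.42 and 1.41 in controls, -2.93 and -2.95 in the depression-susceptible samples, -1.19 in the anxiety-susceptible sample and -4.19 in the insusceptible sample. The groups fell in the same order, and the difference of Aqp1 over both susceptible groups was 2.12 (SE 0.09, adjusted p = 0.0450 by limma). Mfrp, a membrane protein with a frizzled-like domain, was at 3.86 and 3.79 in controls, -1.80 and -1.74 in the depression-susceptible samples, 1.30 in the anxiety-susceptible sample and -2.29 in the insusceptible sample. Its difference was 2.06 (SE 0.09, adjusted p = 0.0478 by limma), the mean of 0.52 in the depression-susceptible and 3.59 in the anxiety-susceptible group. Cldn2, a claudin of leaky epithelial tight junctions, was at 1.35 and 1.33, then -3.76 and -3.75, then -1.29 and -4.44 in the same order of samples, a difference of 1.91 (SE 0.09, adjusted p = 0.0478 by limma). Under normexp background correction the depression-susceptible differences shrank to 0.20 for Sostdc1, 0.09 for Aqp1 and 0.06 for Mfrp, and that of Cldn2 turned from 0.68 to -0.65. The anxiety-susceptible differences under normexp were 3.22, 1.64, 3.0 and 1.60 for Sostdc1, Aqp1, Mfrp and Cldn2.

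Pon1, a lipoprotein-associated esterase, had levels of -2.23 and -2.32 in controls, -6.37 and -6.48 in the depression-susceptible samples, -3.65 in the anxiety-susceptible sample and -7.31 in the insusceptible sample, where no array was well above background. With insusceptible values raised as for Vegfb, Pon1 was 4.2-fold higher in the anxiety-susceptible group, where its difference under normexp was 0.38. The depression-susceptible group then lay lower than the insusceptible group, at a ratio of 0.615, and its difference under normexp was -1.54. The measured difference over both susceptible groups, 2.27 (SE 0.10, adjusted p = 0.0478 by limma), became -0.58 under normexp. The 3 called probes whose targets have no symbol in the name table used here had measured differences of 4.65, 2.93 and 1.91. Control levels were -4.05 and -4.14, -5.02 and -5.13, and -5.55 and -5.59 in that order, and insusceptible levels -7.13, -5.29 and -6.73. Controls of the second thus lay near the insusceptible sample. Its depression-susceptible samples were at -2.09 and -2.14 and its anxiety-susceptible sample at -2.59. The first and the last were not well above background on any insusceptible array. With the same raising, the first was 14.5-fold higher in the depression-susceptible and 6.15-fold higher in the anxiety-susceptible group. The last was 2.51-fold and 1.38-fold higher. Under normexp the group differences were 1.55 and 0.69 for the first and -0.70 and -0.42 for the last. These ratios are therefore not minima. The measured difference of the last became -0.56 under normexp.

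Ifit1, an interferon-induced protein that binds viral RNA, was the 1 probe called lower. Its level was -4.09 and -4.0 in controls, -4.66 and -4.71 in the depression-susceptible samples, -5.89 in the anxiety-susceptible sample and -2.93 in the insusceptible sample. All 4 insusceptible arrays were above the other 12, and 1 of 4 anxiety-susceptible arrays was well above background. The difference was -2.36 (SE 0.09, adjusted p = 0.0450 by limma), with -1.76 in the depression-susceptible and -2.96 in the anxiety-susceptible group.

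Gene lists were counted in a second fit on the 16 arrays with slide as a random block, because the fit on 6 samples called few probes. With 1 slide each for the anxiety-susceptible and insusceptible groups, that fit cannot separate slide from group and its p-values are too small, so its counts describe these arrays. It placed each susceptible group past the threshold above the insusceptible group for 230 of 11216 genes (2.05%) and below it for 244 (2.18%), and these shares are the background for the lists. The median difference over all genes was 0.00. All differences share the insusceptible arrays, so the 2 susceptible groups are not independent evidence for each other.

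Choroid plexus markers lay mostly above the insusceptible group, further in the anxiety-susceptible than in the depression-susceptible group, and the depression-susceptible side depended on the background correction. Of 21 tested, 13 were past the threshold above the insusceptible group in each susceptible group and 0 below, and the list's median difference was 0.44 in the depression-susceptible and 1.59 in the anxiety-susceptible group. Ttr, the thyroxine carrier that is the most abundant product of the choroid plexus, was at 6.57 and 6.31 in controls, 5.05 and 4.81 in the depression-susceptible samples, 6.92 in the anxiety-susceptible sample and 3.51 in the insusceptible sample. Its difference over both groups had an adjusted p of 0.0840 in the limma fit on 6 samples, above the threshold. Kcnj13, a potassium channel, and Prlr, the prolactin receptor, differed by 3.02 and 3.12 in the anxiety-susceptible group and by 0.62 and 0.55 in the depression-susceptible group; Prlr was not well above background on any insusceptible array, so its values are measured differences only. Folr1, a folate receptor, differed by 1.8 in the anxiety-susceptible group and by -0.07 in the depression-susceptible group. The summed linear level of 13 defining markers was 113 to 136 on control arrays, 29.3 to 35.0 on depression-susceptible arrays, 119 to 138 on anxiety-susceptible arrays and 12.1 to 12.7 on insusceptible arrays. Most of that sum is Ttr. Without Ttr the sum was 34.7 to 37.0 on control, 1.59 to 1.72 on depression-susceptible, 7.78 to 7.98 on anxiety-susceptible and 1.13 to 1.18 on insusceptible arrays, and the list's median difference between anxiety-susceptible samples and controls was -1.79. On the insusceptible arrays Slc4a5, Kl and Prlr were not well above background, and on the depression-susceptible arrays Kl was not. The part that the amount of choroid plexus in the tissue has in any result was not tested. Under normexp the list's median was -0.63 in the depression-susceptible and 0.59 in the anxiety-susceptible group, and 0.02 in place of 0.87 over both. Both groups then lay above the insusceptible group for 7 of the 21 markers and below it for 3.

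Markers of ependymal cells, the ciliated lining of the ventricles, had 4 of 11 members above the insusceptible group in each susceptible group and 0 below. Cfap126, a protein of motile cilia, was at 0.39 and 0.50 in controls, -1.29 and -1.19 in the depression-susceptible samples, -0.64 in the anxiety-susceptible sample and -1.88 in the insusceptible sample. Rsph1, a radial spoke protein, differed by 0.57 in the depression-susceptible and 0.06 in the anxiety-susceptible group. The list's direction was lost under normexp, with both groups above for 3 members and below for 3, and a depression-susceptible median of -0.19 in place of 0.32.

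Several meningeal fibroblast markers lay the other way, with 6 of 12 past the threshold below the insusceptible group in each susceptible group and 1 above. The 6 were Slc6a13, Slc6a20a, Slc22a6, Aldh1a2, Col3a1 and Ogn. Slc6a13, a GABA and taurine transporter of the leptomeninges, was at -3.87 and -4.07 in controls, -2.90 and -2.67 in the depression-susceptible samples, -3.31 in the anxiety-susceptible sample and -1.83 in the insusceptible sample. Aldh1a2, which makes retinoic acid, differed by -0.71 and -1.46 in the depression-susceptible and anxiety-susceptible groups. Igf2, the growth factor, was the member past the threshold above, by 0.63 and 1.01. Dcn also lay above in both groups, by 0.31 and 0.13, and Lum, Col1a2 and Fmod lay on opposite sides. The summed level of 5 defining markers was 4.188 to 4.845 on control and 4.027 to 5.115 on depression-susceptible arrays. It was 3.43 to 3.617 on anxiety-susceptible and 4.43 to 4.609 on insusceptible arrays. The adjusted p of the members over both groups was 0.123 or more in the limma fit on 6 samples.

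**Figure D2:**
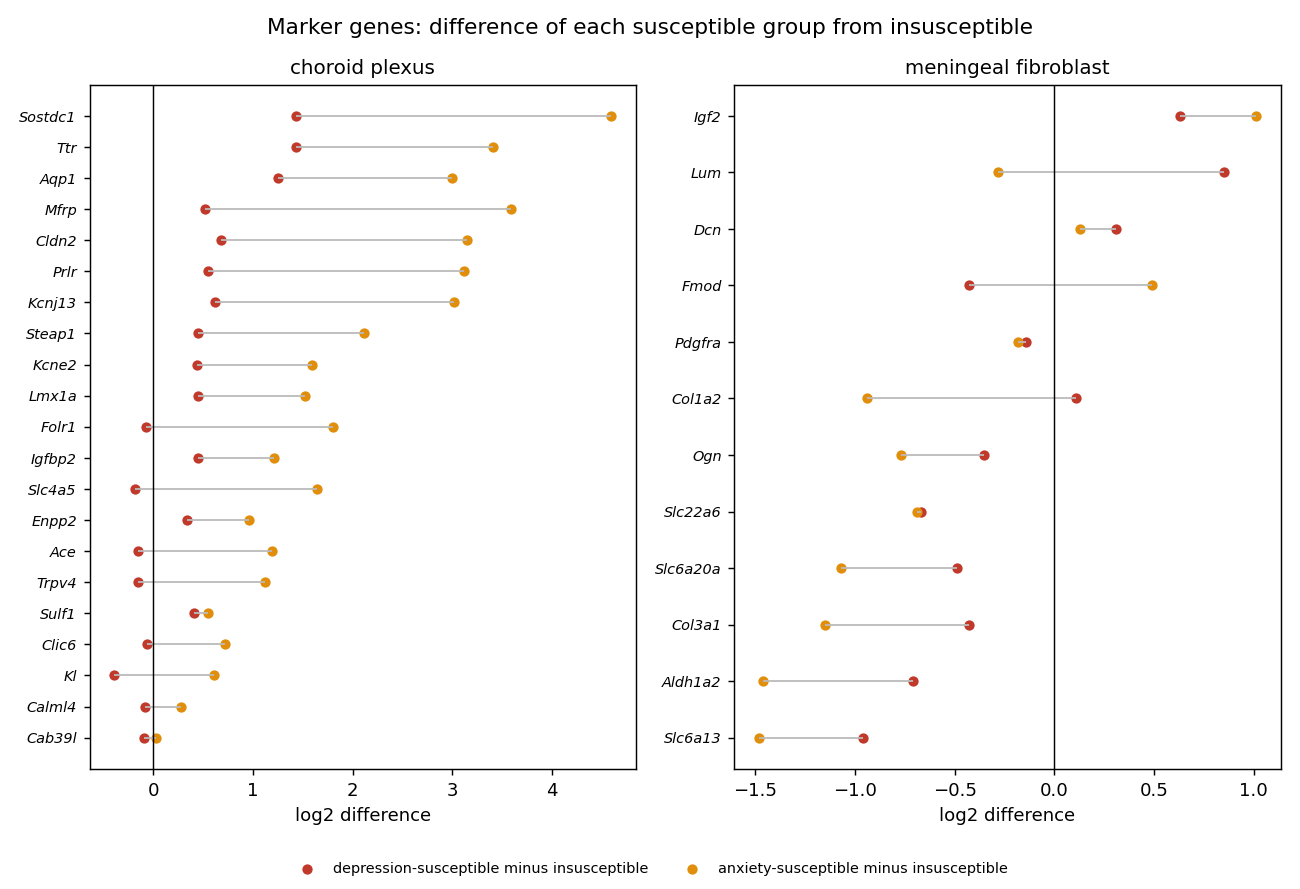
Log2 difference from the insusceptible group (x axis) for each tested choroid plexus marker (left) and meningeal fibroblast marker (right), with the depression-susceptible difference in red and the anxiety-susceptible difference in orange. For 13 of 21 choroid plexus markers both points lie above 0, and for 7 of 12 fibroblast markers both lie below 0.

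Red blood cell genes did not share a side: 8 of 9 lay on opposite sides of the insusceptible group. Among all genes, 4769 of 11216 did so. Some of the 8 were small or dim: the anxiety-susceptible difference of Ahsp was -0.05, and Hba-a3 was well above background only on depression-susceptible arrays. Hbb, a beta globin, was at -0.67 and -0.71 in controls, 3.68 and 3.50 in the depression-susceptible samples, -1.16 in the anxiety-susceptible sample and 0.23 in the insusceptible sample. The summed level of 6 markers was 0.745 to 0.786 on control arrays and 11.8 to 14.4 on depression-susceptible arrays. It was 0.523 to 0.571 on anxiety-susceptible and 1.31 to 1.39 on insusceptible arrays. The part of blood in the depression-susceptible values was not tested.

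Immediate early genes lay mostly above the insusceptible group: 9 of 27 were past the threshold above the insusceptible group in each susceptible group and 0 below, and both groups lay above it for 15 and below it for 1, where all genes gave 26.7% above and 30.8% below. The 9 were Atf3, Klf4, Egr2, Fos, Dusp1, Junb, Nr4a1, Ier2 and Btg2. Atf3, a stress-induced transcription factor, was at -2.48 and -2.45 in controls, -2.56 and -2.48 in the depression-susceptible samples, -0.94 in the anxiety-susceptible sample and -3.43 in the insusceptible sample. Fos, a subunit of the AP-1 transcription factor, was at -3.67 and -3.51 in controls, -3.35 and -3.10 in the depression-susceptible samples, -2.58 in the anxiety-susceptible sample and -3.92 in the insusceptible sample. In both genes the insusceptible arrays were lowest, below controls too, and all 8 susceptible arrays lay above all 4 insusceptible arrays, as in 9.04% of all genes. Klf4, a zinc finger factor, differed by 0.85 and 1.06, Egr2 by 0.81 and 1.0, and Ier2 by 0.61 and 0.98 in the depression-susceptible and anxiety-susceptible groups. Btg2, an antiproliferative factor, differed by 0.56 in each. In the limma fit on 6 samples no member passed, and the lowest adjusted p of the 9 over both groups was 0.0717, for Atf3.

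Not all activity genes were past the threshold above the insusceptible group in each susceptible group. Bdnf, the neurotrophin of hippocampal plasticity, was at 1.40 and 1.58 in controls, 0.95 and 1.21 in the depression-susceptible samples, 0.17 in the anxiety-susceptible sample and 0.51 in the insusceptible sample, so the 2 susceptible groups lay on opposite sides. Arc, a synaptic regulator, lay above in both groups, by 0.46 and 0.21. With slide as a random block it did not pass in the anxiety-susceptible group. Nr4a2, a nuclear receptor, differed by 0.67 and -0.31. Under normexp the depression-susceptible difference of Fos turned from 0.69 to -0.47, that of Atf3 shrank from 0.91 to 0.04 and that of Egr2 from 0.81 to 0.27. Those of Nr4a1, Klf4, Dusp1, Junb, Ier2 and Btg2 were 0.49 to 0.74. Both groups then lay above for 13 of 27 and below for 4, and the shares of all genes were not counted under normexp.

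Genes induced by glucocorticoids lay mostly below the insusceptible group: 6 of 27 were past the threshold below it in each susceptible group and 1, Dusp1, above it. Both groups lay below it for 17 and above it for 4, against the 30.8% and 26.7% of all genes. Under normexp the counts were 16 and 5, and the shares of all genes were not counted there. Normexp medians in the depression-susceptible and anxiety-susceptible groups were -0.21 and -0.23 for the list, and -0.10 and -0.12 for all genes. Fkbp5, a chaperone that lowers the affinity of the glucocorticoid receptor, was at 2.62 and 2.74 in controls, 2.32 and 2.52 in the depression-susceptible samples, 2.76 in the anxiety-susceptible sample and 3.08 in the insusceptible sample. All 8 susceptible arrays were below all 4 insusceptible arrays, as in 10.3% of all genes. Sgk1, a kinase induced by corticosteroids, was at 4.02 and 3.71 in controls, 3.12 and 2.89 in the depression-susceptible samples, 2.74 in the anxiety-susceptible sample and 3.31 in the insusceptible sample. Pdk4, a kinase that inhibits pyruvate dehydrogenase, differed by -0.69 and -1.25, Sult1a1 by -0.50 and -0.63, Gjb6, an astrocyte connexin, by -0.42 and -0.54, and Mertk by -0.63 and -0.66. Tsc22d3, another target of the receptor, differed by -0.02 and -0.44. The adjusted p over both groups was 0.238 for Fkbp5 and 0.353 for Sgk1 in the limma fit on 6 samples. The receptors themselves, Nr3c1 and Nr3c2, had adjusted p of 0.695 and 0.314 there. With slide as a random block in limma, Nr3c2 passed over both groups (adjusted p = 0.00845) and Nr3c1 did not. Nr3c2 differed by 0.61 in the depression-susceptible and 0.05 in the anxiety-susceptible group, and did not pass in the latter.

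**Figure D3:**
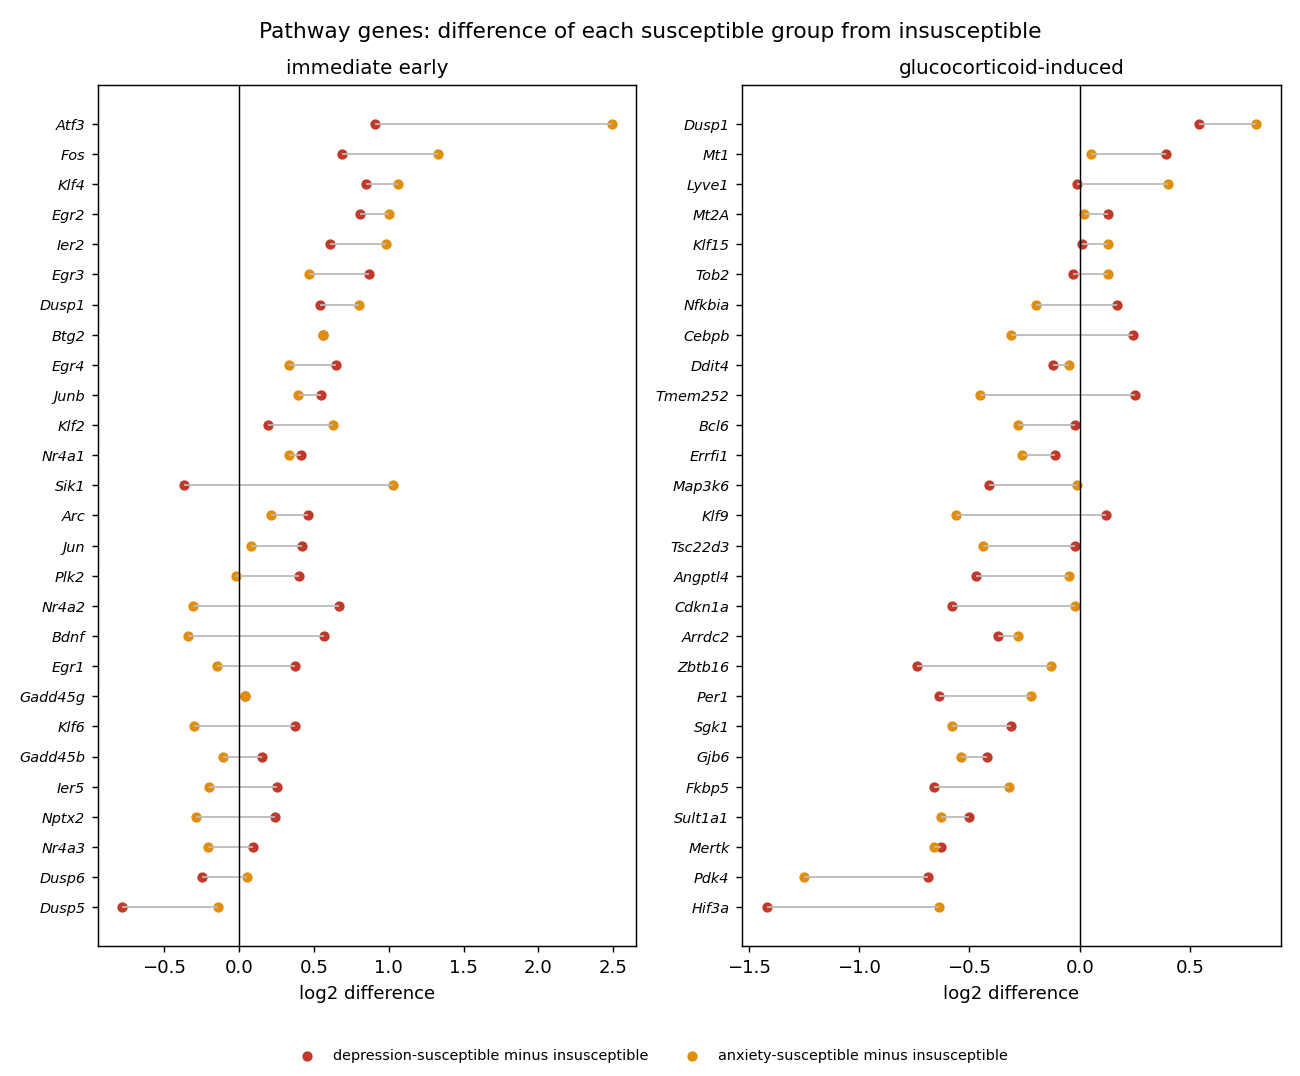
Log2 difference from the insusceptible group (x axis) for each tested immediate early gene (left) and glucocorticoid-induced gene (right), with the depression-susceptible difference in red and the anxiety-susceptible difference in orange. Both points lie above 0 for 15 of 27 immediate early genes and below 0 for 17 of 27 glucocorticoid-induced genes.

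The interferon response list had 1 of 30 members above and 3 below in each susceptible group. Besides Ifit1, Irf7, the transcription factor that amplifies the interferon response, was at -0.30 and -0.41 in controls, -1.06 and -1.13 in the depression-susceptible samples, -0.89 in the anxiety-susceptible sample and -0.14 in the insusceptible sample. Ifi27, an interferon-induced mitochondrial protein, lay on the other side, at 3.37 and 3.45 in controls, 2.80 in both depression-susceptible samples, 2.92 in the anxiety-susceptible sample and 1.48 in the insusceptible sample. Oas1a, an RNA-sensing enzyme, was the third below, by -0.86 and -0.56. Isg15 differed by -0.37 and -0.06 and Mx1 by -0.24 and 0.08. Cytokine genes had 5 of 34 above and 0 below, namely Il1a, Tnf, Ccl2, Ccl5 and Cxcl10. Ccl5 was well above background on 0 of the 4 insusceptible arrays, and Tnf and Ccl2 on 2. Tnf was at -5.27 and -5.26 in controls, -4.84 and -4.81 in the depression-susceptible samples, -4.76 in the anxiety-susceptible sample and -5.65 in the insusceptible sample. Under normexp the anxiety-susceptible difference of each of the 5 was below 0.

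Promoters with a motif match are shown for 5 of these genes because their lists turn on factors with known recognition motifs. No promoter without a match is shown. They run from 250 bases before to 50 after the annotated start (RefSeq, build GRCr8), 5′ to 3′ on the gene's strand, with motif matches in capitals. The interferon response element core (searched, as all motifs here, on both strands) is marked in Irf7 (chr1:205799974-205800273, minus strand) and Ifi27 (chr6:128355062-128355361, plus strand), the cAMP response element (TGACGTCA) in Dusp1 (chr10:17184603-17184902, plus strand) and Ier2 (chr19:40399123-40399422, plus strand), and the CArG box, the site of serum response factor, in Egr2 (chr20:21054392-21054691, minus strand).
Irf7: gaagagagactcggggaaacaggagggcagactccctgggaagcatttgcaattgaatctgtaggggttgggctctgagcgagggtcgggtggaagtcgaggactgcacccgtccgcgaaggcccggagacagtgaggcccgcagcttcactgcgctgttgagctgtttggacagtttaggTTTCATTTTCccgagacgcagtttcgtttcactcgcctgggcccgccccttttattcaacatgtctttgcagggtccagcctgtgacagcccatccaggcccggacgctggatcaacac
Ifi27: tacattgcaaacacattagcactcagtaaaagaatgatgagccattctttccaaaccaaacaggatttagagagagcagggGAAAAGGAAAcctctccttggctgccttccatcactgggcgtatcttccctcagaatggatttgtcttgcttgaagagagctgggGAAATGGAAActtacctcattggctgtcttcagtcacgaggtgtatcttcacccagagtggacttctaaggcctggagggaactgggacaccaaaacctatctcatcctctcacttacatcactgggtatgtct
Dusp1: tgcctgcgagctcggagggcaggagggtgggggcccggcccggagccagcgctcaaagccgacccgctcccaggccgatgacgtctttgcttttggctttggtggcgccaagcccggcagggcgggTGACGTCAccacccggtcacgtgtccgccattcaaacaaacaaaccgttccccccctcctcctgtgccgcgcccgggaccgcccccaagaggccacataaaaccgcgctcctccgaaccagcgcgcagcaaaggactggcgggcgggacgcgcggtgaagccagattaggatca
Ier2: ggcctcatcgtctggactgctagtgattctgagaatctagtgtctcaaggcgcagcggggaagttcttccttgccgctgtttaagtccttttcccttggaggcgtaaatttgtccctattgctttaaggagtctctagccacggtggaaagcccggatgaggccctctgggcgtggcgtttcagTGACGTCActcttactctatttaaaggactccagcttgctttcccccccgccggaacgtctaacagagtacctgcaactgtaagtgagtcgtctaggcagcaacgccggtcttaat
Egr2: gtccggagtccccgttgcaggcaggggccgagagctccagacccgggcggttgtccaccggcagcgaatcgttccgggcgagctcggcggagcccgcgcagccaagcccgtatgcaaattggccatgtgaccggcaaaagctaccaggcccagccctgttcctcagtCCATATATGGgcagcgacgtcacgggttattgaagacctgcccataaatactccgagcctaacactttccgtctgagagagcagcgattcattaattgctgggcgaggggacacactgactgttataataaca
The interferon core occurred in 3.92% of 33469 promoters of this length, in 15 of the 23 tested interferon genes with a promoter in the table, and in both Irf7 and Ifi27, which lay on opposite sides. The cAMP element occurred in 1.83% of all promoters, in 4 of the 20 tested immediate early genes with a promoter, and in 3 of the 7 immediate early genes above in each group that had a promoter, Btg2, Dusp1 and Ier2. The CArG box occurred in 1.64% of all promoters, in 4 of those 20 and in 1 of those 7. The glucocorticoid element core (ACANNNTGT) occurred in 6.86% of all promoters, in 2 of the 26 tested glucocorticoid-induced genes with a promoter and in 0 of the 7 glucocorticoid-induced genes past the threshold on 1 side in both groups. A match is a description of these letters only.

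A further 30 genes were chosen after their values were seen: past the threshold in each susceptible group with slide as a random block, at an unadjusted p under 0.05 in each on 6 samples, with their sign kept under quantile and normexp values, and well above background on all 12 stressed arrays. There were 71 such genes above and 132 below, and the 15 with the largest smaller difference in each direction are plotted. Since these values chose them, they are given as a description. Among those above, Eif1ad, an RNA-binding protein related to a translation initiation factor, was at -1.05 and -1.19 in controls, -1.20 and -1.40 in the depression-susceptible samples, -1.79 in the anxiety-susceptible sample and -3.20 in the insusceptible sample. Apold1, an endothelial early response protein, differed by 1.33 and 1.52, Kcng1, a silent potassium channel subunit, by 1.57 and 1.06, and Slc38a1, a neuronal glutamine transporter, by 0.85 and 0.77. For Eif1ad, Apold1 and Kcng1 the controls lay with the susceptible groups. Among those below, Fcrl2, an Fc receptor-like protein, was at -2.52 and -2.51 in controls, -2.80 and -2.63 in the depression-susceptible samples, -3.04 in the anxiety-susceptible sample and -1.25 in the insusceptible sample. Ccl19, a lymphocyte chemokine, differed by -0.88 and -1.05, Slc19a3, a thiamine transporter, by -1.39 and -1.01, Srd5a2, a steroid reductase, by -1.32 and -0.97, and Pln, an inhibitor of the calcium pump of muscle, by -0.76 and -1.24.

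**Figure D4:**
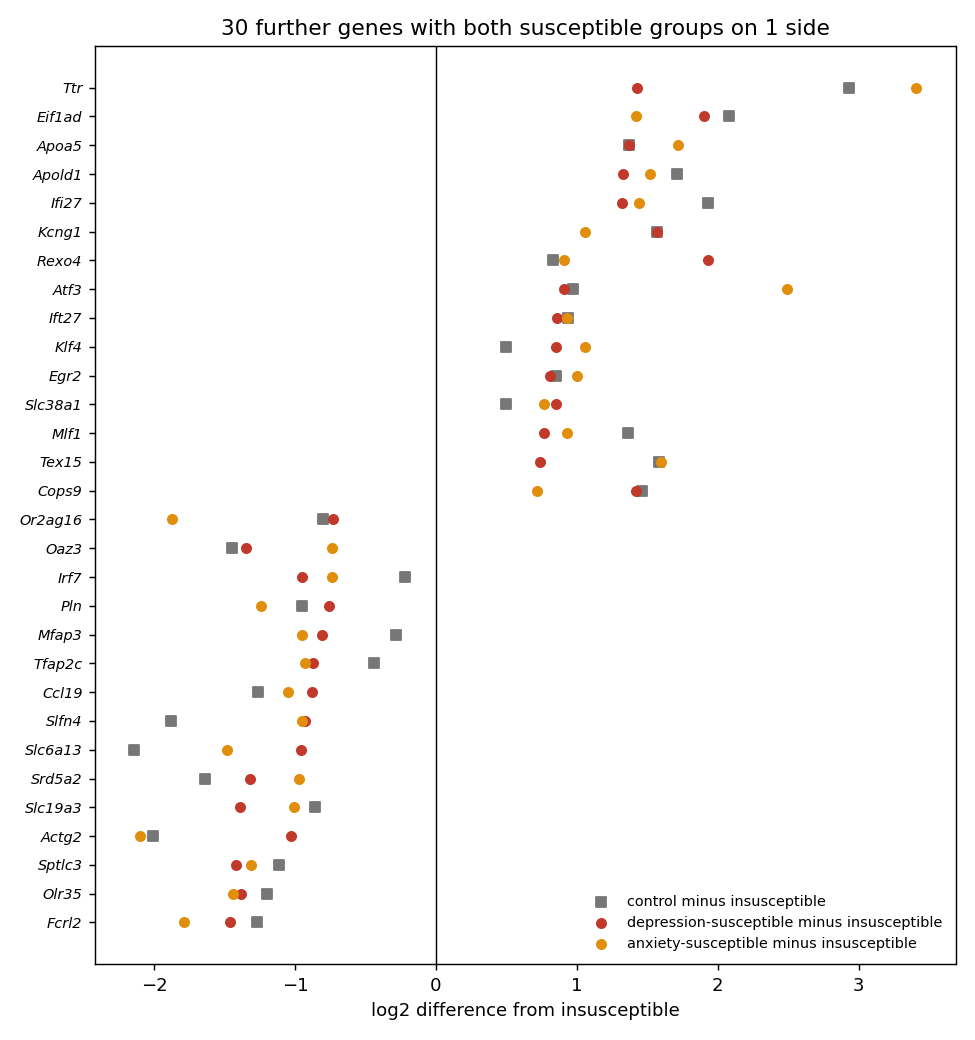
Log2 difference from the insusceptible group (x axis) of controls (grey squares), depression-susceptible (red) and anxiety-susceptible samples (orange) for the 30 further genes, 15 above and 15 below. Both susceptible points lie on the same side of 0 for all 30 because the genes were chosen so.

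Other genes tied to stress and mood did not pass over both groups in the limma fit on 6 samples. No immediate early or glucocorticoid-induced gene passed there either. With slide as a random block in limma, Npy and Sst passed over both groups (adjusted p = 0.00133 and 0.0346), but neither passed in each group. Npy, the peptide of interneurons, was at 4.68 and 4.48 in controls, 4.08 and 4.0 in the depression-susceptible samples, 3.23 in the anxiety-susceptible sample and 3.13 in the insusceptible sample (adjusted p = 0.229 by limma). Gad1, which makes GABA, differed by -0.28 and 0.05, and Gad2 by 0.50 and -0.23. Sst, the interneuron peptide somatostatin, differed by 0.18 and 0.42. Vegfa, which shares receptors with Vegfb, differed by 0.14 and -0.01, and the astrocyte filament gene Gfap by -0.07 and 0.18. Crh, the stress-released peptide, differed by 0.50 and 0.19 and had an adjusted p of 0.412 in the limma fit. Htr1a, a serotonin receptor, was well above background on 3 control, 4 depression-susceptible, 0 anxiety-susceptible and 1 of the 4 insusceptible arrays. For Slc6a4, the serotonin transporter, the counts were 1, 2, 1 and 0 in the same order. Of 1092 RefSeq non-coding probes, 0 (0.0%) were called in the limma fit on 6 samples, with 226 (20.7%) called when slide was a random block. That block fit called 1742 of all 17708 probes higher and 1786 lower, so the non-coding share lay near that of all probes.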

How the data were processed

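Per the file headers, the deposited intensity values came from 16 single-colour arrays read with Agilent Feature Extraction 11.0.1.1, background-subtracted within each array and not normalized between arrays. The deposited table of log2 values, whose columns share a median of 7.49, was used only as an alternative; the sources used here name no software for it. Control and outlier spots were left out and spots of a probe averaged. The log2 processed signal was lowered by the 75th percentile of that array's spots. That percentile was also run over probe means, which gave 4 calls in place of 10; the choice was settled with both counts known, and spots were kept because the scale is defined on the processed signal itself. Probes well above background on at least 4 of 16 arrays were tested with limma 3.58.1 in R 4.3.3, after averaging arrays of 1 group on 1 slide. A gene was read from its brightest probe, and symbols came from RefSeq accessions (GRCr8, names only; 14274 of 15323 messenger RNA probes matched).

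The comparison, genes and lists were chosen with earlier results of these data known. The naming rule took messenger RNA genes called on 6 samples and on 16 arrays, with both differences keeping their sign under quantile and normexp values; it gave 4 genes above and 1 below. Normexp (offset 50) used median spot signals, since mean signals were not used here. Replicate numbers did not pair the samples (1 of 24 same-numbered pairs correlated above 0.1). The fits were tested on simulated data.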

Additional observations from a re-analysis of the deposited data

Results flagged for a closer look

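Several results stood out on inspection. The depression-susceptible and anxiety-susceptible groups differed from each other, in the limma fit on 6 samples, in 10 of 93 genes and probes checked. These 93 leave out some of the genes named or plotted here, and the share among all probes was not counted. Of the 10, 9 were lower in the depression-susceptible group. The difference was -3.16 for Sostdc1 (adjusted p = 0.0136), -3.07 for Mfrp (adjusted p = 0.0137), -2.47 for Cldn2 (adjusted p = 0.0178), -2.77 for Pon1 (adjusted p = 0.0202) and -2.57 for Prlr (adjusted p = 0.0221, limma). It was -2.40 for Kcnj13 and -1.75 for Aqp1 (adjusted p = 0.030 for both), -1.87 for Folr1 (adjusted p = 0.0352) and -1.58 for Atf3 (adjusted p = 0.0407, limma). Hbb was higher in the depression-susceptible group, by 4.75 (adjusted p = 0.00802, limma); globin genes are near-identical copies, so its probe may read others. Outside the 93, Hbb-b1, Hbb-bs, Hba-a1 and Hba-a2 were also higher in the depression-susceptible group, by 4.90, 4.87, 4.53 and 4.17. The summed choroid plexus marker level was lower and the summed red blood cell marker level higher in the depression-susceptible group, and their part was not tested.

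Single arrays lay far from the other 3 of their group in 21 of 371 groups of 4 arrays (5.66%), about the 1 in 20 that chance flags. Among controls the lowest array was at 3.72 for Mfrp, -1.26 for Kcng1 and -2.12 for Mx1, and the highest at -3.91 for Tfap2c and -1.96 for Prlr. Among depression-susceptible arrays the highest was at 0.80 for Rexo4, -5.59 for Prlr and 2.27 for Junb, and the lowest at 0.71 for Tsc22d3 and -5.75 for Oas1a. Among anxiety-susceptible arrays the highest was at -0.86 for Apold1, 0.15 for Cops9, 0.24 for Bdnf and -2.53 for a called probe without a symbol. It was at -1.90 for Slc22a6, 1.8 for Dusp1 and -2.94 for Il1a, and the lowest was at -5.63 for Il1b. Among insusceptible arrays the lowest was at -2.48 for Apold1 and -1.28 for Rexo4, and the highest at -1.63 for Slc6a13.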

How the results depend on the processing

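The counts of calls depended on the processing. On 6 samples 9 probes were higher and 1 lower, all with both groups on the same side, and 3 higher and 0 lower were called in each group. Quantile normalization gave 45 and 6, and 28 and 6 in each group. The deposited value table gave 32 and 6, and 21 and 4. Normexp gave 0 and 0, as did no filter on dim probes (limma). A filter on all 16 arrays gave 4 and 0, and 0 in each group. Taking the percentile over probe means, chosen after seeing the data, gave 4 and 0. A variance trend, also added later, gave 29 and 6 (28 and 6 on the same side, 8 and 3 in each group). Counting 16 arrays as samples gave 4016 and 4632 (2948 and 3942; 1048 and 1804), slide as a random block 1742 and 1786 (1462 and 1632; 350 and 449), the replicate block 3658 and 4302 (2723 and 3716; 907 and 1583), and the 12 stressed arrays 4320 and 4934 (3127 and 4138; 1183 and 2006). Leaving out 1 array or 1 slide mean gave 0 to 10 higher, 0 to 1 lower, and 0 to 3 higher in each group. Of the called genes, 2 turned sign under normexp: Pon1 to -0.58 and a probe without a symbol to -0.56. The cause of these shifts was not tested. The median shift over all genes was -0.10 under normexp. The insusceptible arrays had the fewest probes above background, which limits the precision there.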
